A study of Mus musculus with 10 samples.

Results

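The genes that build the oxidative phosphorylation machinery were followed in RNA from hippocampal synaptoneurosomes, a subcellular fraction in which both sides of a synapse break off and reseal as small sacs. Members were taken by gene symbol, as every row whose symbol names a subunit of complexes I to V (the Nduf, Sdh, Uqcr, Cox and Atp5 families and their mitochondrially encoded partners). This gave 99 of the 22255 genes in the gene table, 13 encoded in the mitochondrial genome and 86 in the nucleus. The mice were wild-type C57Bl/6J and received either vehicle (5 libraries) or a sub-chronic course of AM6545 (5 libraries), a peripherally restricted blocker of the CB1 cannabinoid receptor. Dose, duration, age and sex are not given in the sources used here. Nor do they say whether a library came from 1 animal or a pool, so n counts libraries and every p-value measures the spread between libraries, which may be technical.

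Oxidative phosphorylation makes most of the ATP of a neuron. Complexes I and II pass electrons from NADH and succinate to ubiquinone, complex III passes them to cytochrome c and complex IV to oxygen, and the proton gradient that this builds drives the ATP synthase, complex V. The core membrane subunits of complexes I, III, IV and V are encoded in mitochondrial DNA and translated inside the organelle, while the other subunits, and all of complex II, come from nuclear genes, so both genomes have to supply matching parts. Mitochondria are carried into axon terminals and dendrites, and some nuclear mRNAs for mitochondrial proteins are found there as well.

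Library totals ran from 18106112 to 25899794 estimated counts. All 5 presynaptic markers fixed for the check of the preparation (Syn1, Syt1, Snap25, Syp, Vamp2) passed the filter on low counts, and their summed level was 7236 to 9081 CPM, that is, counts scaled to the library total after edgeR's TMM factor was applied to it. The oligodendrocyte markers Mbp, Mog, Mag, Mobp and Cnp also all passed, at a summed 9577 to 23597 CPM, so myelin RNA was abundant in the fraction. A lower sum for a cell type in such bulk RNA can come from fewer of its cells or from less RNA per cell, and these cannot be told apart.

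The 13 mitochondrially encoded members lie close together on the mitochondrial chromosome of GRCm38, from mt-Nd1 at chrM:2751-3707 to mt-Cytb at chrM:14145-15288. Of these, 12 are on the plus strand and 1, mt-Nd6 at chrM:13552-14070, is on the minus strand, where it overlaps the end of mt-Nd5 by 14 bases. Whether strand was used in counting is not given in the sources used here, so reads from those 14 bases cannot be assigned to one of the genes. mt-Atp6 and mt-Co3 share 1 base. Another 2 pairs of genes share more because each pair is carried by 1 messenger and read in overlapping frames. The sequences of the joins are shown because the counts of these pairs, given next, were far from equal. The last bases of mt-Atp8 (chrM:7903-7969) and the first of mt-Atp6 (chrM:7927-7993), both on the plus strand and read 5′ to 3′ from the reference transcripts, share the 43 bases in capitals:
mt-Atp8: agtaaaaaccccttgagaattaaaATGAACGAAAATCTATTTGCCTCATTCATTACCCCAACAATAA
mt-Atp6: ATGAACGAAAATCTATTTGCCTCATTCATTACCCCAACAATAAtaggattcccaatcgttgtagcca
The last bases of mt-Nd4l (chrM:10143-10173) and the first of mt-Nd4 (chrM:10167-10197), also on the plus strand, share the 7 bases in capitals:
mt-Nd4l: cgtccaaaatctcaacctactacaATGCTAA
mt-Nd4: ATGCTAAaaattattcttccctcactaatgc

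Levels were compared between genes only per length, on the TPM scale, which divides the estimated counts of each transcript by its annotated length and scales them to the library. The most abundant member was mt-Atp6, which encodes the proton channel subunit of the ATP synthase, at 25667 ± 3181 TPM (SD over all 10 libraries, as for each TPM value here). It was followed by the cytochrome oxidase subunits mt-Co3 at 20847 ± 2952 TPM and mt-Co1 at 12352 ± 1378 TPM. Next came mt-Cytb, the only mitochondrially encoded subunit of complex III, at 10591 ± 1251 TPM, mt-Co2 at 9632 ± 1416 TPM and the complex I subunit mt-Nd1 at 8879.6 ± 1102 TPM. From mt-Co1 down to mt-Nd1 the ranges of neighbours in this order overlapped, although mt-Co1 exceeded mt-Cytb within each of the 10 libraries. The lowest library of mt-Co3 (17209.8 TPM) stood above the highest of mt-Co1 (14786 TPM). The other complex I subunits were lower, with mt-Nd4 at 5690.4 ± 756 TPM, mt-Nd2 at 2979.9 ± 279 TPM, mt-Nd5 at 2661 ± 375 TPM and mt-Nd6 at 2189 ± 274 TPM. The shortest genes were lowest, mt-Nd3 at 586 ± 132 TPM, mt-Atp8 at 552 ± 90.2 TPM and mt-Nd4l at 471 ± 52.0 TPM. The 5 genes with most counts (mt-Co1, mt-Atp6, mt-Co3, mt-Cytb and mt-Nd1) took between 74.5% and 76.9% of all mitochondrially encoded member counts in every library.

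Genes on the same messenger did not have the same level. In the vehicle libraries 1 to 5, mt-Atp6 exceeded mt-Atp8 per length by 53.3, 48.3, 50.1, 52.1 and 40.9 times, and in the AM6545 libraries 1 to 5 by 50.1, 36.4, 52.9, 47.0 and 39.8 times. mt-Nd4 exceeded mt-Nd4l by 11.96, 10.4, 12.9, 13.4 and 11.6 times in the vehicle libraries and by 14.6, 11.1, 14.2, 10.9 and 10.3 times in the AM6545 libraries. The treatment groups overlapped in both ratios, and the inequality was present in each of the 10 libraries. mt-Atp8 (204 bases) and mt-Nd4l (297 bases) are the shortest of the 13 genes, and whether the library kit or the quantification undercounts such short features was not tested. Sequence shared with nuclear copies also differs within the pairs. Of the words of 31 bases in mt-Atp6, 99.5% occur in another annotated gene, against 7.47% of those in mt-Atp8. For mt-Nd4l the share is 98.9% and for mt-Nd4 62.8%, for mt-Co2 it is 100% and for mt-Co3 99.9%, while mt-Nd1 shares none. Most of the shared words lie in nuclear copies of mitochondrial DNA such as Gm10925 (mt-Atp6), Gm28437 (mt-Co3) and Gm28661 (mt-Co2), whose counts are not analysed here. By this search the absolute levels of these genes are less certain than that of mt-Nd1. Only annotated transcripts were searched, so a nuclear copy of mt-Nd1 outside them would not have been seen.

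Nuclear members were also among the abundant RNAs of the fraction, below the mitochondrially encoded ones. The median over the 83 nuclear members that passed the filter was 322 TPM, against 5690.4 TPM over the 13 mitochondrially encoded members and 15.1 TPM over all genes tested. All 13 mitochondrially encoded members and 74 of the 83 nuclear ones stood above 90% of the genes tested. The highest nuclear member was Atp5b, the catalytic beta subunit of the ATP synthase, at 2643 ± 465.5 TPM, followed in that complex by the alpha subunit Atp5a1 at 1129 ± 205 TPM and the c-ring gene Atp5g3 at 884 ± 133 TPM. Beta and alpha subunits stand in equal number in the enzyme, while the lowest library of Atp5b (1969.6 TPM) stood above the highest of Atp5a1 (1384 TPM). In complex I the leading genes were Ndufb9 (976 ± 139 TPM), Ndufa4 (893 ± 139.8 TPM) and Ndufb8 (566 ± 80.4 TPM). Ndufa4 is grouped here by its symbol, although its protein is now known as a subunit of complex IV. Complex III was led by the core subunit Uqcrc1 (746 ± 118 TPM), with its other 7 genes between Uqcr11 at 421 ± 83.7 TPM and Uqcrq at 292 ± 49.4 TPM. In complex II, the flavoprotein Sdha stood at 490.2 ± 60.8 TPM and the iron-sulfur subunit Sdhb at 461 ± 53.5 TPM, within their spread of each other, above the membrane anchors Sdhd at 292 ± 23.6 TPM and Sdhc at 120.3 ± 16.8 TPM.

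**Figure D1:**
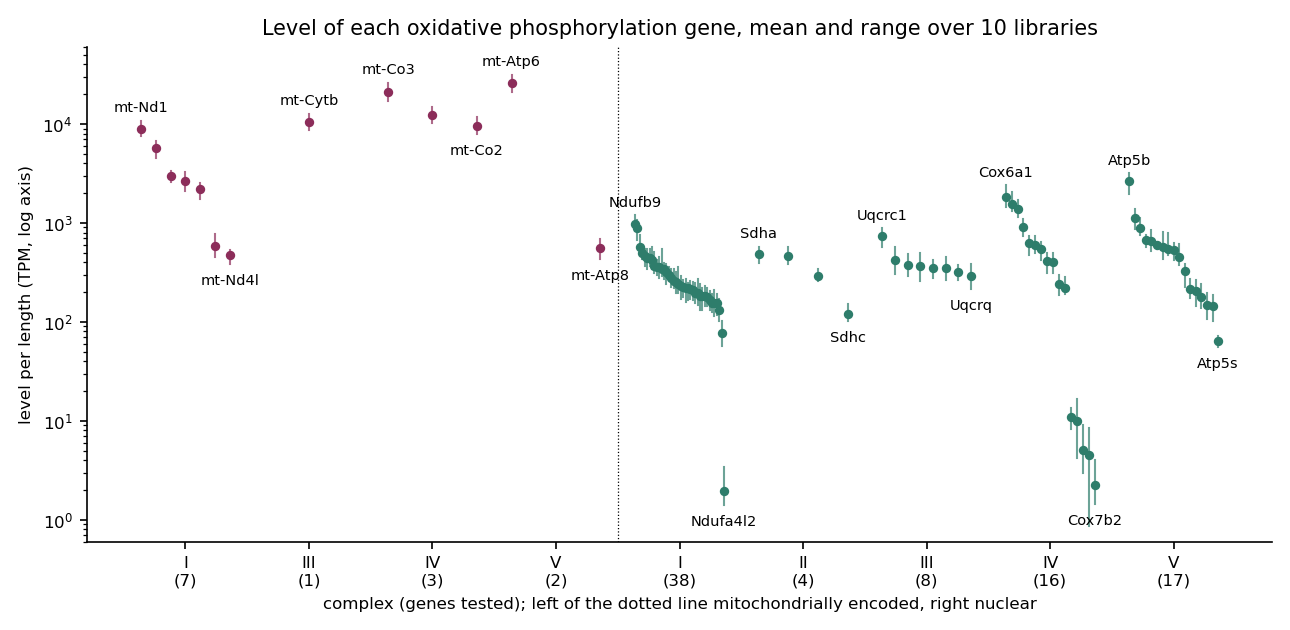
Level per length (TPM, log axis) of the 96 members that passed the filter on low counts, by genome and complex; each point is the mean and each line the range over 10 libraries. The 13 mitochondrially encoded genes span mt-Nd4l to mt-Atp6, and the nuclear genes form a narrower band with a separate low group of isoforms such as Ndufa4l2 and Cox7b2.

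In complex IV, the tissue-restricted isoforms stood far below the common form of the same subunit. Cox4i1, the regulatory subunit found in most tissues, stood at 1561 ± 254 TPM, and its lung-type and hypoxia-responsive paralogue Cox4i2 at 0.982 ± 0.509 TPM. Cox8a stood at 1397 ± 199.7 TPM against 4.495 ± 2.84 TPM for the heart and muscle form Cox8b, and Cox8c was listed at 0 in all 10 libraries, which in the smallest library allows up to 0.166 CPM on its total without that factor (3 counts, counting error only). Cox7a2 stood at 416 ± 63.5 TPM and the related Cox7a2l at 218 ± 25.7 TPM, against 5.05 ± 2.03 TPM for the muscle form Cox7a1. Cox6b1 stood at 541 ± 75.5 TPM and the testis form Cox6b2 at 10.02 ± 4.21 TPM, and Cox7b at 243 ± 39.2 TPM with Cox7b2 at 2.23 ± 0.806 TPM. The restricted forms Cox4i2, Cox6a2, Cox6b2, Cox7a1, Cox7b2 and Cox8b each took at most 2.53% of the TPM of their set of paralogues in any library, while Cox7a2l took 29.7% to 37.7% of the Cox7a set. The c-ring of the ATP synthase differed from this pattern, since 3 genes that encode the same mature protein were all expressed. Atp5g3 made 49.8% to 59.0% of their summed TPM, Atp5g1 31.5% to 39.9% and Atp5g2 9.49% to 13.1%. This split is uncertain, because 67.3% of the words of 31 bases in Atp5g1 and 87.7% in Atp5g2 occur in another annotated gene. For Atp5g3 the share is 0%. Over 20% of such words were shared in 27 nuclear members.

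Among the nuclear members that passed the filter, the 3 most variable were restricted isoforms. Of those members, Cox8b had the largest SD of log2 CPM over the 10 libraries, 1.16, followed by Cox6b2 with 0.71 and Cox7a1 with 0.50. The median over the nuclear members that passed was 0.27, and another restricted form, Cox6a2, stood near it at 0.29. Cox8b stood at 1.602, 1.28, 0.778, 0.164 and 1.15 CPM in vehicle libraries 1 to 5 and at 0.544, 0.414, 1.598, 0.166 and 0.692 CPM in AM6545 libraries 1 to 5. Vehicle 1, vehicle 2 and AM6545 3 were its highest libraries, and the lowest of each group (vehicle 4 and AM6545 4) rested on about 4 counts each. The same 3 libraries had the highest summed red blood cell markers (896, 791 and 1334 CPM, against 285 to 468 CPM elsewhere) and the highest pericyte markers (139.8, 121 and 125 CPM, against 66.0 to 88.2 CPM). The 9 choroid plexus markers fixed for the check, all of which passed the filter, summed to 66.2 to 5013 CPM in vehicle and 657 to 4009 CPM in AM6545 libraries. Their 4 lowest libraries, vehicle 4 (66.2 CPM), AM6545 4 (657 CPM), AM6545 2 (943 CPM) and AM6545 1 (1596 CPM), were also the 4 lowest for Cox8b and for Cox6b2. The part of blood, vessel and choroid plexus RNA in the levels of these isoforms was not tested. The steadiest nuclear members were Atp5s (SD 0.12), an accessory factor of the synthase, the peripheral stalk subunit Atp5f1 (0.16) and Sdhc (0.16).

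Cox6a1 needs a separate account, because its row in the gene table does not hold its coding transcript. The row held 161, 68.8, 113, 84.2 and 69.7 counts in vehicle libraries 1 to 5 and 69.2, 71.2, 74.6, 75.3 and 103 counts in AM6545 libraries 1 to 5. These values equal those of the retained-intron transcript Cox6a1-202 in every library, with a largest difference of 0 counts. The coding transcript Cox6a1-201 had 15171, 7993, 12709, 11938 and 11864 counts in the vehicle libraries and 11246, 10609, 12971, 11803 and 8924 in the AM6545 libraries, with overlapping groups. With that transcript included, Cox6a1, the brain and liver form of its subunit, was the highest nuclear gene of complex IV at 1831 ± 329.6 TPM, and its muscle paralogue Cox6a2 stood at 10.996 ± 2.02 TPM. The other 98 members equalled the sum of their transcripts within 0.5 counts, so the mismatch was limited to Cox6a1 among the members.

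Summed over each genome, the 2 sets of RNA varied between libraries in different ways. The 13 mitochondrially encoded members held 5.21, 4.28, 6.10, 4.80 and 5.32% of the counts of vehicle libraries 1 to 5 and 4.64, 4.82, 5.97, 5.02 and 4.16% of those of AM6545 libraries 1 to 5. Vehicle 3 and AM6545 3 were highest, vehicle 2 and AM6545 5 lowest, and the groups overlapped. The 86 nuclear members held 2.06, 1.38, 1.603, 1.74 and 1.605% in the vehicle libraries and 1.602, 1.91, 1.61, 1.604 and 1.77% in the AM6545 libraries. Here vehicle 1 was highest and vehicle 2 lowest, with all 5 AM6545 libraries between them. For the nuclear members the vehicle mean was 1.68 ± 0.251% and the AM6545 mean 1.70 ± 0.139% (SD, n = 5 each). These shares, and the ratios given next, leave out the coding transcript of Cox6a1. The nuclear shares are therefore somewhat low and the ratios somewhat high. With Cox6a1 taken from its transcripts, the nuclear share differed by 0.020 percentage points (AM6545 minus vehicle), beside 0.022 without.

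The balance of the genomes, as the ratio of mitochondrially encoded to nuclear member counts, was 2.52, 3.10, 3.80, 2.75 and 3.31 in vehicle libraries 1 to 5 and 2.89, 2.52, 3.70, 3.13 and 2.35 in AM6545 libraries 1 to 5. The vehicle mean was 3.10 ± 0.499 and the AM6545 mean 2.92 ± 0.534 (SD, n = 5 each), a difference smaller than the spread in either group. On the log2 scale AM6545 minus vehicle was -0.091, and it ran from -0.18 without AM6545 3 to -0.013 without vehicle 3. The 2 libraries with the highest ratio, vehicle 3 and AM6545 3, also had the highest summed oligodendrocyte markers of their groups, 16816 and 23597 CPM, against 9577 to 17029.5 CPM in the other 8 libraries. Excitatory neuron markers differed less, from 2208 to 2679 CPM over all libraries. The part of oligodendrocyte RNA in this ratio was not tested.

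**Figure D2:**
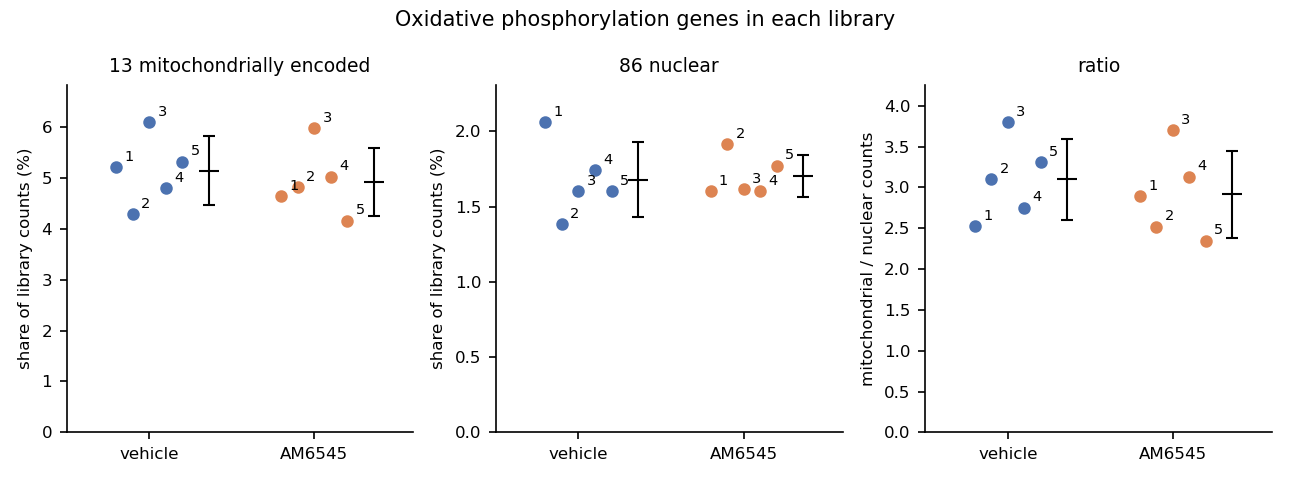
Share of library counts (%) held by the 13 mitochondrially encoded and the 86 nuclear members, and the ratio of the 2, for vehicle and AM6545 libraries; numbers give the library, and black marks the mean ± SD of 5 libraries. The groups overlap in all 3 panels, with vehicle 3 and AM6545 3 highest for the mitochondrial share and the ratio, and vehicle 1 highest for the nuclear share. The coding transcript of Cox6a1 is not included.

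The main question of the design was whether AM6545 was accompanied by a difference in these RNAs. No member passed the test. In edgeR's quasi-likelihood test over 14358 genes, 0 of the 96 members tested had an adjusted p under 0.05, against a background of 0% of all genes tested, and the smallest adjusted p of a member was 0.9998. At an unadjusted p under 0.05 the count was again 0 of 96 members, where 1.88% of all genes tested were below it. Groups that did not overlap in CPM were found for 0 of 96 members, against 0.293% of all genes tested. DESeq2's Wald test also called 0 members and 0 genes. The estimates lay below 0 for 72 members and above 0 for 24, where over all genes tested 7452 lay below 0 and 6906 above. The members' median log2 fold change (AM6545 minus vehicle) was -0.057 beside -0.0057 over all genes tested. The nuclear median was -0.057 and turned to 0.071 without vehicle 1, and the mitochondrially encoded median was -0.067 and turned to 0.0091 without vehicle 3 and to 0.0054 without AM6545 5. Both also turned above 0 (0.0047 mitochondrially encoded, 0.035 nuclear) once a trend with mRNA length was removed from each library, an alternative added after seeing the data.

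Among the mitochondrially encoded members, the estimates ran from -0.15 for mt-Co3 to 0.11 for mt-Nd6, with 10 of 13 below 0 and a median of -0.067. mt-Co3 stood at 9931, 6369.9, 10933, 8423 and 8868 CPM in vehicle libraries 1 to 5 and at 7219.7, 8356, 10097, 7827 and 6737 CPM in AM6545 libraries 1 to 5, with the 2 groups interleaved. Its log2 fold change was -0.15 (SE 0.15). mt-Nd6, the only member read from the other strand, stood at 529, 468, 632, 550.3 and 636 CPM in the vehicle libraries and at 595, 653, 691, 612 and 492 CPM in the AM6545 libraries. Here 2 AM6545 libraries lay above all vehicle libraries and AM6545 5 lay near the bottom, and the log2 fold change was 0.11 (SE 0.12). The abundant mt-Atp6 stood at 9163, 7434, 11450.2, 8869.8 and 9665 CPM in the vehicle libraries and at 8183, 8738, 10381, 9231 and 7238 CPM in the AM6545 libraries. Vehicle 3 and AM6545 3 were again highest in their groups, and its log2 fold change was -0.090 (SE 0.14).

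The remaining mitochondrially encoded genes had the same kind of overlap. For mt-Co1 the vehicle libraries 1 to 5 held 11663, 7978, 11419.8, 9373 and 9239 CPM and the AM6545 libraries 9995, 9301, 11944, 10098 and 7824 CPM, and AM6545 3 and AM6545 5 were the extremes of all 10. For mt-Cytb the values were 6699.9, 5172, 7777, 6211 and 6296 CPM in vehicle, then 5923, 5734, 7309, 6611 and 4936 CPM in AM6545 libraries. mt-Nd1, which shared no word of 31 bases with another annotated gene, stood at 4297, 3487, 5507, 4479 and 4758 CPM in vehicle libraries. In AM6545 libraries it stood at 4084, 4113, 4983, 4571 and 3630.4 CPM, all 5 of them inside the vehicle range. Its highest library was number 3 in each group, as for mt-Co3 and mt-Atp6, whose words occur almost all in other annotated genes. Over the 13 genes, 7 were highest in vehicle 3 and 5 in AM6545 3, while 7 were lowest in vehicle 2 and 5 in AM6545 5. None of the 13 differed by more than 2-fold between its highest and lowest library, whereas 17 of the 83 nuclear members did. Among those were Cox8b (4 to 33 counts per library), Cox6b2 (27 to 90) and the Cox6a1 row, but also better counted ones such as Ndufs7 (2216 to 5090). The least counted mitochondrially encoded gene, mt-Atp8, had 974 to 1668 counts, so counting error also differs between the 2 sets.

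Complex II, which has no mitochondrially encoded part, held the member with the smallest p. Sdha stood at 665, 634, 679.7, 787 and 682 CPM in vehicle libraries 1 to 5 and at 831, 861, 653, 786 and 711 CPM in AM6545 libraries 1 to 5. AM6545 1 and 2 lay above all vehicle libraries and AM6545 3 near the bottom of the range, giving a log2 fold change of 0.16 (SE 0.11). Its anchor subunit Sdhd differed in the other direction, with 249.6, 168, 189.9, 189.7 and 183 CPM in vehicle, then 172, 183, 173, 163 and 192 CPM in AM6545 libraries. One library, vehicle 1, stood far above the rest, and the log2 fold change was -0.15 (SE 0.11). Sdhb (-0.059) and Sdhc (0.016) had smaller estimates, so the 4 genes of this complex did not share a direction.

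In complex I, 30 of the 38 nuclear estimates were below 0 and 8 above, with a median of -0.059. Ndufs1, the largest iron-sulfur subunit of the NADH-oxidizing arm, stood at 271, 254, 258, 357 and 291 CPM in vehicle libraries 1 to 5 and at 345, 360.0, 256, 328 and 299 CPM in AM6545 libraries 1 to 5. Vehicle 4 sat among the high AM6545 libraries, and the log2 fold change was 0.15 (SE 0.12). Ndufs8, another iron-sulfur subunit, stood at 163, 82.4, 116, 109 and 97.6 CPM in vehicle and at 88.4, 113, 108, 94.4 and 104 CPM in AM6545 libraries, which all fell inside the vehicle range. Its log2 fold change was -0.16 (SE 0.15). The abundant Ndufb9 (466.1, 272, 424, 329 and 332 CPM in vehicle libraries, then 297, 384, 444, 315 and 304 CPM in AM6545 libraries) and Ndufa4 (315, 205, 283, 238 and 263 CPM, then 187, 306, 274, 204 and 277 CPM) had estimates of -0.064 and -0.065.

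Complex III had a median estimate of -0.0025 over its 8 nuclear genes, 3 above and 5 below 0. Uqcrc1 stood at 862, 442, 555, 758 and 575 CPM in vehicle libraries 1 to 5 and at 719, 650.0, 511, 687 and 617 CPM in AM6545 libraries 1 to 5, so its vehicle libraries alone spanned the whole range. The small hinge subunit Uqcrh, which helps cytochrome c bind, stood at 137, 79.0, 101, 97.0 and 100.1 CPM in vehicle and at 76.4, 117, 131, 84.9 and 105 CPM in AM6545 libraries, with a log2 fold change of -0.0012. Uqcr11 (0.0083) and Uqcrq (-0.11) also had overlapping groups. Cytochrome c itself (Cycs), which the symbol rule leaves out, had a vehicle mean of 259 ± 20.6 CPM and an AM6545 mean of 254 ± 28.9 CPM (SD, n = 5 each). The heme subunit Cyc1 of complex III is likewise outside the rule and stood at 546 ± 43.1 and 589 ± 93.8 CPM.

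In complex IV, 13 of the 16 nuclear members tested had estimates below 0, with a median of -0.063. Cox4i1 stood at 886, 453, 694, 562 and 543 CPM in vehicle libraries 1 to 5 and at 487, 580.5, 714, 488 and 539 CPM in AM6545 libraries 1 to 5. Its log2 fold change was -0.16 (SE 0.16), with vehicle 1 as the highest library and vehicle 2 as the lowest. Cox7a2l stood at 177, 105, 129, 115 and 119.9 CPM in vehicle and at 102, 117, 122, 106 and 121 CPM in AM6545 libraries. AM6545 1 lay just below all vehicle libraries and the other 4 inside their range, and the log2 fold change was -0.18 (SE 0.13). The largest estimate of any member, -0.57 for Cox8b, had an SE of 0.53. For Cox6a1 the gene table's row of the retained-intron transcript gave -0.32 (SE 0.26), and -0.055 without vehicle 1.

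Complex V had 12 of 17 nuclear estimates below 0 and a median of -0.057, yet its catalytic subunits lay above 0. Atp5b stood at 2934, 1879, 2214, 3180.4 and 2230.0 CPM in vehicle libraries 1 to 5 and at 3010.3, 3139, 1965, 2743 and 2745 CPM in AM6545 libraries 1 to 5. The libraries fell into a high set (vehicle 1 and 4 and AM6545 1, 2, 4 and 5) and a low set (vehicle 2, 3 and 5 and AM6545 3) with no value between 2230.0 and 2743 CPM, and each treatment group had members in both. Its log2 fold change was 0.13 (SE 0.16). Atp5a1 had the same division, with 1693, 1105, 1221, 1852 and 1299 CPM in vehicle, then 1761, 1822, 1159.9, 1672 and 1523 CPM in AM6545 libraries, and a log2 fold change of 0.15 (SE 0.15). Over the 10 libraries the 2 catalytic genes took from 19.4% to 29.6% of the counts of the nuclear members tested, without the coding transcript of Cox6a1. The c-ring genes Atp5g1 (-0.18), Atp5g2 (-0.13) and Atp5g3 (-0.057) had estimates below 0, which without vehicle 1 were -0.0089, 0.013 and 0.10. Atp5g3 also turned to 0.047 under the correction for length. The accessory factor Atp5s stood at 47.2, 44.6, 46.8, 47.2 and 46.5 CPM in vehicle and at 39.1, 45.1, 41.6, 39.2 and 48.9 CPM in AM6545 libraries, with 3 AM6545 libraries below all vehicle libraries and 1 above, and a log2 fold change of -0.12 (SE 0.091). The natural inhibitor of the synthase, named Atpif1 in the table and outside the rule, had a vehicle mean of 129 ± 23.3 CPM and an AM6545 mean of 129 ± 20.7 CPM (SD, n = 5 each).

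**Figure D3:**
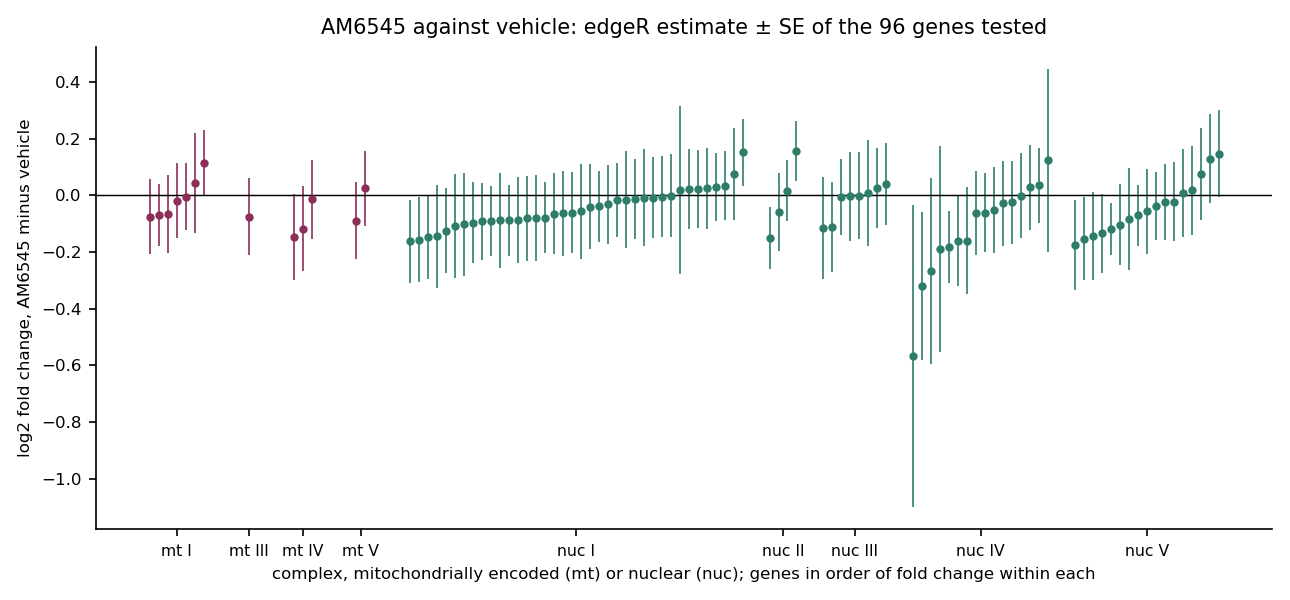
edgeR log2 fold change (AM6545 minus vehicle) ± SE of the 96 members tested, grouped by genome and complex and ordered within each group. The estimates lie mostly between -0.2 and 0.2, 72 of them below 0 (7452 of 14358 over all genes tested). In edgeR's test 0 of 96 passed an adjusted p of 0.05. The widest bar is Cox8b.

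The larger pattern in the nuclear members was between libraries, not between treatments. Of the 83 tested, 66 had their highest CPM in vehicle 1, and 77 had their lowest in vehicle 2 (35 members) or AM6545 1 (42 members). Their median deviation from the mean of all 10 libraries, in log2 CPM, was 0.44, -0.33, 0.017, -0.060 and -0.024 in vehicle libraries 1 to 5 and -0.33, 0.18, 0.11, -0.17 and 0.065 in AM6545 libraries 1 to 5. Most of these mRNAs are short, 46 of the 83 being at most 800 bases long, 32 between 800 and 2000 bases and 5 longer. The 388 other genes of at most 800 bases deviated in nearly the same way, by 0.52 in vehicle 1, -0.24 in vehicle 2, -0.34 in AM6545 1 and 0.17 in AM6545 2, where the short nuclear members deviated by 0.45, -0.33, -0.40 and 0.21. When the trend with length was removed from each library, the nuclear medians shrank to between -0.092 and 0.064. In the shortest class the deviation was thus shared with other short mRNAs. Between 800 and 2000 bases, members and other genes were both high in vehicle 1 (0.44 and 0.33). There the members were further below 0 in vehicle 2 (-0.34 against -0.15) and AM6545 1 (-0.22 against -0.058). In AM6545 2 they stood at 0.13 and the other genes at -0.013. The labels give no batch or RNA quality by which the libraries could be divided.

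By their medians, the members over 2000 bases and the mitochondrially encoded ones departed from the short members in vehicle 1 and AM6545 1. They stood at 0.0072 and 0.024 in vehicle 1. In AM6545 1 the mitochondrially encoded ones stood at -0.10, where the short nuclear members stood at -0.40. In vehicle 2, however, both were low (-0.22 and -0.31), as the short nuclear members were (-0.33). In AM6545 2 the longer members were high (0.25), like the short ones (0.21). Of the longer ones, Ndufb2 went with the short members, with its highest value in vehicle 1 (69.9 CPM) and its lowest in AM6545 1 (46.6 CPM). Lengths here are means over transcripts weighted by counts. For Ndufb2 the mean was 2358 bases, below the 4371 of its main transcript, so shorter forms enter its counts. The 5 nuclear members over 2000 bases (Ndufb2, Ndufs1, Sdha, Sdhc and Atp5a1) deviated by a median of 0.20 in AM6545 1, 0.25 in AM6545 2, -0.22 in vehicle 2 and -0.15 in AM6545 3, while the 10277 other genes of that length stayed at 0.043, 0.0043, 0.061 and 0.00011. The 5 had estimates above 0 for AM6545 minus vehicle, with a median of 0.15, beside 0.020 over those other genes. Those of Ndufb2 (0.029, SE 0.12) and Sdhc (0.016, SE 0.11) were small beside their SE. The estimates below 0 were 35 of 46 in the shortest class and 27 of 32 in the middle class. Other genes also had medians below 0 in those 2 classes (-0.098 and -0.071), further from 0 than those of the nuclear members (-0.063 and -0.049). The share below 0 was not lower in the middle class than in the shortest, so the division by sign rests on the 5 longest members. The mitochondrially encoded members deviated by 0.28 in vehicle 3 and 0.25 in AM6545 3, and after the length trend was removed still by 0.28 and 0.18. In vehicle 1 the same removal moved them from 0.024 to -0.42, where the short nuclear members had stood at 0.45.

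**Figure D4:**
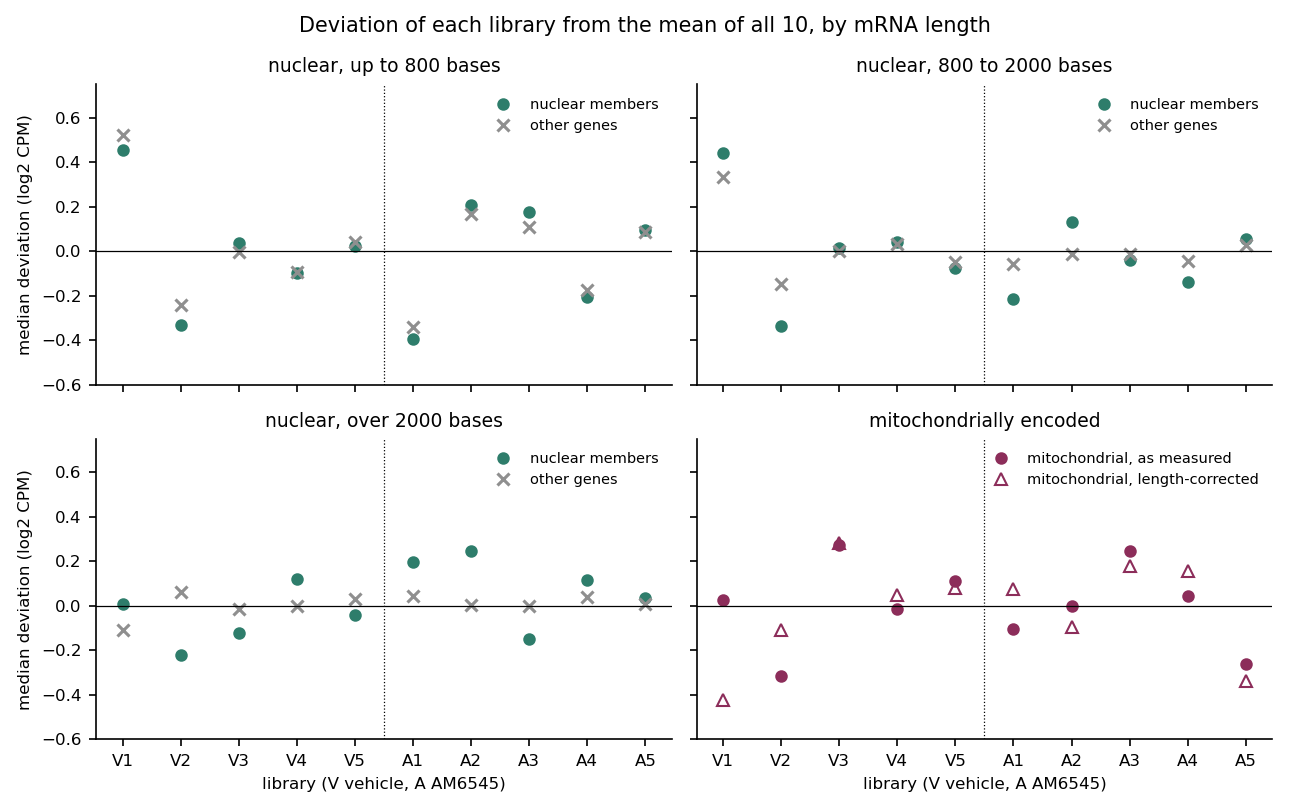
Median deviation (log2 CPM) of each library from the mean of all 10, for nuclear members and other genes in 3 classes of mRNA length, and for the mitochondrially encoded members before and after removal of the length trend. Short nuclear members and other short genes move together, from 0.45 and 0.52 in vehicle 1 to -0.40 and -0.34 in AM6545 1, while the mitochondrially encoded members peak in vehicle 3 and AM6545 3.

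**Figure D5:**
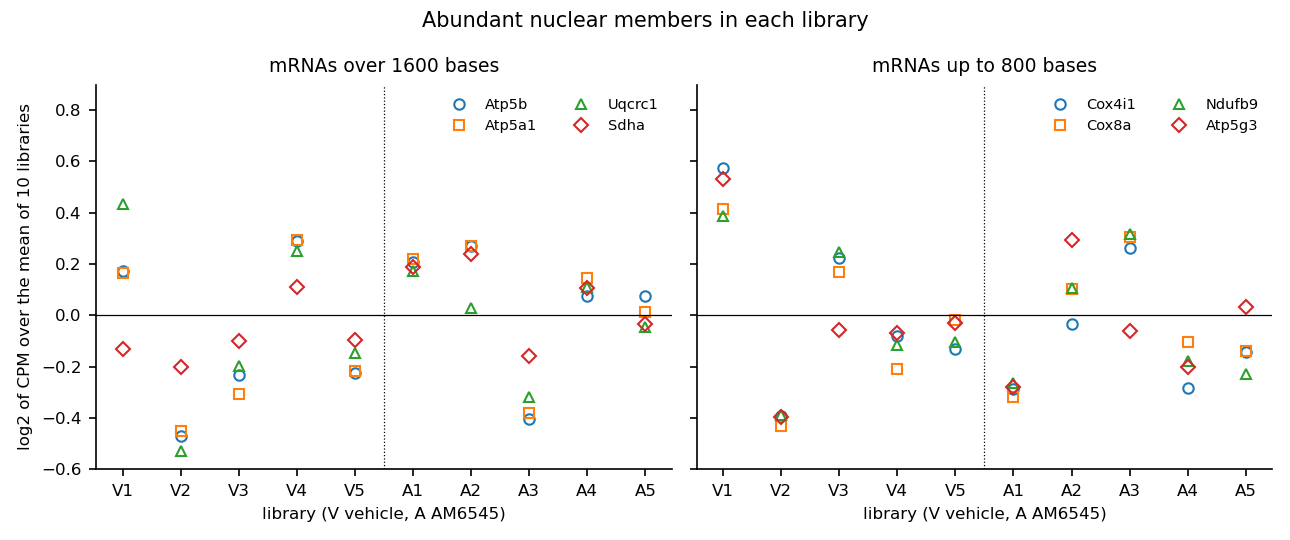
CPM of 8 abundant nuclear members in each library, as log2 of the ratio to their mean over 10 libraries, for longer (left) and shorter (right) mRNAs. Atp5b and Atp5a1 are low in vehicle 2, 3 and 5 and AM6545 3 and high in the other 6 libraries, whereas Cox4i1, Cox8a and Ndufb9 are highest in vehicle 1, vehicle 3 and AM6545 3.

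The start regions of the nuclear members were searched as a description of the genes. In the shortest class the variation between libraries was shared with other short mRNAs, and any part of these regions in the variation was not tested. RefSeq windows of 250 bases before to 50 after the annotated start (GRCm38.p6) were matched for 66 of the 86 nuclear members, and 3 short words were looked for on both strands: CGCATGCG, a form of the NRF1 motif, CCGGAAGT, a form of the ETS motif bound by GABP, and AAGATGGCG, a form of the YY1 motif. NRF1 and GABP are known as nuclear respiratory factors, activators of many respiratory chain genes. The NRF1 word was in 9 of the 66 members (13.6%), against 4.04% of the tested genes with a window and 2.07% of all genes with one. The YY1 word was in 7 (10.6%, against 3.22% and 1.64%) and the ETS word in 5 (7.58%, against 8.27% and 4.31%), and 19 of 66 members (28.8%) held at least 1 of the 3, against 14.6% of the tested genes with a window and 7.58% of all genes with one. The matches are a description of these windows and show no binding. Uqcr11 and Atp5j each held 2 of the words. For 3 well expressed members, 1 for each word, the word is given in capitals with 25 bases to each side, read 5′ to 3′ along the gene's own minus strand, from Cox6a1 (chr5:115349087-115349144), Uqcr11 (chr10:80406855-80406912) and Atp5j (chr16:84835031-84835089):
Cox6a1, NRF1 word: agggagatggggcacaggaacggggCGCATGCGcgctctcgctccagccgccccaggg
Uqcr11, ETS word: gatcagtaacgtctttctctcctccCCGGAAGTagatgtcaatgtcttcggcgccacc
Atp5j, YY1 word: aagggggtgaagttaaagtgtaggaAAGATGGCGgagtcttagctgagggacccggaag

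Transcripts of the members gave no call either. The transcript table held 401 transcripts of member genes, and protein-coding ones took 98.5% of their counts. Of the 246 tested, 0 had an adjusted p under 0.05 in edgeR, against 0.00314% of all transcripts tested, and the smallest adjusted p among them was 0.9999; DESeq2 also called 0 of them. An unadjusted p under 0.05 was found for 5 transcripts, against a background of 1.97% of all transcripts tested. One was higher in AM6545 libraries, the retained-intron form Cox4i1-203, with 159, 69, 118, 354 and 161 counts in vehicle libraries 1 to 5 and 289, 147, 792, 752 and 183 counts in AM6545 libraries 1 to 5. AM6545 3 and 4 alone stood above the vehicle range, and the log2 fold change was 1.42 (SE 0.57). Of the 4 that were lower, Atp5o-206, a form subject to nonsense-mediated decay, had 54, 35, 36, 45 and 35 counts in vehicle and 26, 21, 12, 24 and 33 in AM6545 libraries, 4 of the latter lying below all vehicle libraries when scaled to library size. Its log2 fold change was -0.81 (SE 0.29). The others were Atp5h-208, Atp5c1-206 and Ndufb4-203, at log2 fold changes of -0.97, -0.51 and -0.74. Atp5h-208 was a large part of its gene, with a vehicle mean of 70.7 CPM where Atp5h had 199 CPM. In AM6545 libraries the means were 36.7 and 185 CPM, and the groups overlapped for both. How reads are shared between transcripts of 1 gene adds an error to these values that the table does not give.

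Genes that assemble, feed and regulate the complexes were counted from the same test, and 0 in each list had an adjusted p under 0.05. Of 46 assembly factors tested, 1 had an unadjusted p under 0.05, where 1.88% of all genes tested were below it, and the list's median log2 fold change was -0.074. This was Sdhaf3, an assembly factor of complex II, with 18.4, 17.95, 19.7, 17.6 and 17.6 CPM in vehicle libraries 1 to 5 and 13.9, 17.0, 15.7, 15.6 and 16.1 CPM in AM6545 libraries 1 to 5. Its 5 AM6545 values were lower than every vehicle value, where 0.293% of all genes tested had groups that did not overlap, and the log2 fold change was -0.22 (SE 0.097). Of 15 biogenesis regulators tested, 1 had an unadjusted p under 0.05, again beside 1.88% of all genes. This was Prkaa2, a catalytic subunit of the energy sensor AMPK, with 35.4, 32.6, 32.0, 34.0 and 32.6 CPM in vehicle, then 25.6, 30.2, 25.5, 30.1 and 25.2 CPM in AM6545 libraries. These groups did not overlap either, with a log2 fold change of -0.29 (SE 0.094). Both genes are named because they had the smallest p of their list. In the lists of electron carriers (20 tested), citric acid cycle and pyruvate dehydrogenase genes (20), mitochondrial gene expression (20), carriers and transport (20) and mitochondrial traffic (15), 0 genes had an unadjusted p under 0.05, and the medians were -0.020, 0.033, -0.024, 0.024 and 0.066, beside -0.0057 over all genes tested.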

How the data were processed

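The 10 synaptoneurosome libraries were prepared from total RNA with the SMARTer Ultra Low Input chemistry, as the labels' protocols say, and the authors deposited estimated counts for genes and, in another table, for transcripts. The submitters' processing notes name Salmon 1.5.2 and mm10, with no role given, and the annotation release is not given in the sources used here. The deposited estimated counts were rounded before fitting. Groups came from the library titles. Genes were fitted together in edgeR 4.0.16 (R 4.3.3) with TMM, filterByExpr (minimum count 10, total 15), robust quasi-likelihood, two-sided tests and Benjamini-Hochberg adjustment. Of the members, Cox4i2, Cox8c and the second Atp5o identifier (ENSMUSG00000116933.2) did not pass the filter. Symbols matched 22155 of 22255 identifiers. CPM of genes used rounded counts and the TMM-scaled library total, while shares in percent use the unscaled total, and TPM used GENCODE M21 lengths (99.3% of transcript counts). The model fits were tested on simulated data. Alternatives used DESeq2 1.42.0, limma 3.58.1 (voom), other scalings and filters, the replicate number as a block, each library left out and, added after seeing the data, a correction for length (lowess, span 0.3) and Cox6a1 from its transcripts.

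Members, lists and tests were chosen with earlier results of these data known. Named were all mitochondrially encoded members, isoform sets, complex II, the 3 highest and the lowest of each complex by level, the 5 smallest p in each direction, the 3 most and least variable, and the smallest p in each direction of each list; Atp5c1-206 and Ndufb4-203 were named after their values were seen, as were Ndufb2 and, for its start region, Atp5j. One oligodendrocyte marker of the list is not reported here and was left out of its sum. Depth limits the low isoforms most. The labels name no molecular identifiers, so amplified reads may repeat a molecule and the 3-count limit covers counting error only.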

Additional observations from a re-analysis of the deposited data

Results flagged for a closer look

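Of 146 groups of 5 libraries examined, 5 held a library far from the other 4, where chance flags about 1 in 20 groups, or 7.3 of these. Vehicle 2 had 13.1% of the c-ring TPM from Atp5g2, against 10.3% to 11.1% in the other vehicle libraries. AM6545 3 had a log2 CPM of 10.94 for Atp5b, against 11.42 to 11.62 in the other AM6545 libraries. Vehicle 1 had a log2 CPM of 6.51 for Atp5g2, against 5.82 to 5.95, and vehicle 2 had 5.48 for Atp5s, against 5.54 to 5.56. AM6545 5 had 0.68 for Ndufa4l2, against -0.33 to -0.23 in the other AM6545 libraries, on 14 to 32 counts per library over both groups.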

How the results depend on the processing

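The count of members with an adjusted p under 0.05 was 0 in each of the 20 alternative fits, DESeq2's Wald test among them. Over all genes tested, 1 gene was called by limma-voom with sample quality weights (Insc), 1 without AM6545 3 (Insc) and 1 without vehicle 3 (Gm28048), so leaving out 1 library gave 0 to 1. Members at an unadjusted p under 0.05 numbered 1 under limma-voom (Atp5a1) and 0 to 1 when 1 library was left out, namely Cox8b without AM6545 3 and Ndufs1 without vehicle 4. The median log2 fold change ran from -0.11 (without AM6545 3) to 0.0091 (without vehicle 3) for mitochondrially encoded members and from -0.13 (without vehicle 2) to 0.071 (without vehicle 1) for nuclear ones, and both turned above 0 under the length correction (0.0047 and 0.035). Of 46 named members tested, 18 kept their sign in every fit. The difference in the mitochondrially encoded share ran from -0.48 to 0.021 percentage points over the same omissions. Whether a shared replicate number pairs libraries is not given in the sources used here. Same-numbered libraries correlated at -0.16 to 0.37, 2 of 5 pairs above 0.1, and 3 of 5 vehicle libraries correlated best with their own number. With the replicate number as a block, 0 genes and 0 members were called, and the medians were -0.066 and -0.038.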
